A study of Mus musculus with 6 samples.

Results

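The genes described here are 10 members of the NF-κB system: the 5 DNA-binding subunits Nfkb1, Nfkb2, Rel, Rela and Relb, the cytoplasmic inhibitors Nfkbia and Nfkbie, the nuclear IκB proteins Nfkbiz and Bcl3, and the ubiquitin-editing enzyme Tnfaip3. They were taken by gene name from a table of 54532 genes, and all 10 passed the filter on low counts, which left 15938 genes to test. RNA was sequenced from 6 cultures of CD4+ T cells, which the study's methods describe as bead-isolated from spleens of young male C57BL/6 mice. All 6 were held under Th1 conditions for 72 h per the labels, with plate-bound anti-CD3, anti-CD28, IL-2, IL-12 and anti-IL-4 per the methods. The control group received vehicle (0.1% DMSO, n = 3), and the treated group received 500 nM ALX-5407 (n = 3), an inhibitor of the glycine transporter GlyT1. The methods give a shorter exposure to the compound than the 72 h of Th1 culture, so the length of exposure is not settled. The labels call the 3 cultures of a group biological replicates without saying whether they came from separate mice, so the p-values measure the spread between these cultures.

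NF-κB proteins act as pairs of subunits. Nfkb1 and Nfkb2 encode the precursors p105 and p100, which are processed to p50 and p52, while Rel (c-Rel), Rela (p65) and Relb carry the domains that activate transcription. In a resting cell IκB proteins such as the product of Nfkbia hold the pairs in the cytoplasm. Signals from the T cell receptor with CD28 and from receptors of the TNF family lead to phosphorylation and degradation of the IκB, and the freed subunits bind κB sites in DNA. Nfkbia and Tnfaip3 are themselves classic targets of the pathway and shut it down again as a negative feedback. Bcl3 and Nfkbiz encode IκB relatives that work in the nucleus with p50 or p52. In T cells, c-Rel is known for its part in IL-2 production and Th1 responses.

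The clearest differences among the 10 genes were in Tnfaip3 and Nfkbia, which act as negative feedback, while the inhibitor gene Nfkbie did not pass the test. With ALX-5407, Tnfaip3 fell to 60.8% and Nfkbia to 65.7% of their vehicle levels, and both calls held under each of 16 other ways of processing the counts. The subunit genes moved little: Rel and Relb were lower by a log2 fold change of 0.22 in size, while Nfkb1, Nfkb2 and Rela did not pass the test. Of the nuclear IκB genes, Bcl3 rose and Nfkbiz fell. In all, 1 of the 10 genes was higher and 5 were lower at an adjusted p under 0.05 (quasi-likelihood F test of edgeR, Benjamini-Hochberg values over every gene tested), beside 24.5% of all genes tested that were higher and 23.2% that were lower. No member had a log2 fold change over 1 in size, in edgeR, DESeq2 or limma-voom. Of the 15938 genes tested, 536 were higher and 1064 lower by more than that at an adjusted p under 0.05 in edgeR. At an unadjusted p under 0.05, 2 members were higher and 5 lower, beside 4369 and 4165 of the 15938 genes tested. The median log2 fold change over the 10 genes was -0.10, and that over all genes tested was 0.0053.

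To show the sequence context of these genes, promoter windows (250 bases before to 50 after a RefSeq start, GRCm38.p6) were searched on both strands for the 10-base κB consensus. Of the 10 genes, 7 had a window in the table used, and Nfkb1, Relb and Nfkbiz had none there. A match lay in at least 1 window of 6 of these 7 genes, all but Rela. Of all 27025 genes with a window, 5.14% had a match. The 5 sequences below are shown because they belong to the members with the largest drops (Tnfaip3 and Nfkbia), to the subunit gene Rel that fell, to Bcl3, which rose, and to Nfkb2, which had the most matches in 1 window. Each runs 5′ to 3′ along the gene, from 250 bases before to 20 bases after the start, with the matches in capitals.
Tnfaip3: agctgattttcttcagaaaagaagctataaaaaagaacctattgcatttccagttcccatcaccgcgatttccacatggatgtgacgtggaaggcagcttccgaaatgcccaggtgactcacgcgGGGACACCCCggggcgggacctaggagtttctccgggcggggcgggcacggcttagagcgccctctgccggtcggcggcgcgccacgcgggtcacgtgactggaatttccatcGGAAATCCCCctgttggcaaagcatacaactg
Nfkbia: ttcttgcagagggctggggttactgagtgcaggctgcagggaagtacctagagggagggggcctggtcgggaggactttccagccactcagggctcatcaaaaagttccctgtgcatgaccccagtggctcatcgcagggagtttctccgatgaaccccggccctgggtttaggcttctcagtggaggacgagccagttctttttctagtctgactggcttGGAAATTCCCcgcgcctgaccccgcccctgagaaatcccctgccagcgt
Rel: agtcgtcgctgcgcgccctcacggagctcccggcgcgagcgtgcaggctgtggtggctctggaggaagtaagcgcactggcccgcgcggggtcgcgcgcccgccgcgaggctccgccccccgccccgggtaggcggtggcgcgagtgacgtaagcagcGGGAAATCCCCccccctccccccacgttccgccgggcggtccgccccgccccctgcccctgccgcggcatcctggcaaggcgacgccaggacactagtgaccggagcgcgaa
Bcl3: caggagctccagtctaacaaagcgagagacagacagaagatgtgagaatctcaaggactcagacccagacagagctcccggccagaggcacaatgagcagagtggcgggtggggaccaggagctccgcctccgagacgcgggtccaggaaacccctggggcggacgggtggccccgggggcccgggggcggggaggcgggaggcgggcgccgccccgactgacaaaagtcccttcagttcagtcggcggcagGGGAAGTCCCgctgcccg
Nfkb2: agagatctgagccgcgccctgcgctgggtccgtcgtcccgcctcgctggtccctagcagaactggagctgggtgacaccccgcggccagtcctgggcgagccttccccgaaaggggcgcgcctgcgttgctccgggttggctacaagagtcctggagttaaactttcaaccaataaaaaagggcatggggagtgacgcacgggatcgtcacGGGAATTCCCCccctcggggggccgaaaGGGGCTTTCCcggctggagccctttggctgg

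The windows lie at chr10:19015391-19015660, - strand, for Tnfaip3, at chr12:55492628-55492897, - strand, for Nfkbia, at chr11:23770950-23771219, - strand, for Rel, at chr7:19822736-19823005, - strand, for Bcl3, and at chr19:46304487-46304756, + strand, for Nfkb2. Counting the first transcribed base as 1 and the base before it as -1, the match of Nfkbia, GGAAATTCCC, began at -29. The matches of Tnfaip3 began at -125 (GGGACACCCC) and -12 (GGAAATCCCC). These positions count from the RefSeq start. The annotated span of Tnfaip3 on the - strand reaches 19015657, so both matches lie inside that span. A second window of Tnfaip3, at another start, had no match. Rel had 2 overlapping matches, from -92 and -91, and Bcl3 had 1 just inside the transcript, from position 3. The first of 3 windows of Nfkb2 held 3 matches, of which those from -39 and -38 overlap. The window of Nfkbie, not printed, had 1 match from -106. A match shows only that these letters are present in the window.

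Tnfaip3 (ENSMUSG00000019850, chr10:19000910-19015657, - strand) encodes A20, which removes and rebuilds ubiquitin chains on relay proteins of the pathway. Its levels in the vehicle cultures were 256, 253 and 261 CPM (counts scaled to a common library size after correction for composition), and in the ALX-5407 cultures 167, 160 and 142 CPM. The 3 treated cultures all lay far below the 3 controls. The group means were 257 ± 4.10 and 156 ± 12.9 CPM (± SD over 3 cultures), which is a log2 fold change of -0.72 (SE 0.0747, 95% interval -0.88 to -0.56, edgeR adjusted p = 1.03e-06). By p-value it stood at place 673 of the 15938 genes. Over the 16 alternatives its log2 fold change ran from -0.77 to -0.65, with a highest adjusted p of 2.26e-05.

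Nfkbia (ENSMUSG00000021025, chr12:55489410-55492647, - strand) encodes IκBα, the inhibitor that is degraded and remade in each round of signalling. It measured 143, 150 and 138 CPM with vehicle and 95.7, 93.0 and 94.1 CPM with ALX-5407. The treated cultures lay close together and well under the lowest control. The group means were 144 ± 6.43 and 94.3 ± 1.35 CPM (± SD over 3 cultures), which is a log2 fold change of -0.61 (SE 0.0690, 95% interval -0.75 to -0.46, edgeR adjusted p = 2.55e-06), at place 903 by p-value. The alternatives gave -0.66 to -0.55, with a highest adjusted p of 7.33e-05. Some markers of myeloid and dendritic cells moved the same way as Nfkbia and Tnfaip3. Of 14 genes, 4 could be tested and 2 of these fell. The sum over the 14 was 35.6 to 44.5 CPM with vehicle and 19.8 to 20.6 CPM with ALX-5407. It was made up mostly of the 2 that fell, Cd68 (mean 18.3 CPM with vehicle, 5.44 with ALX-5407) and Ly6c2 (16.9 and 10.9 CPM). Those not tested had at most 15 counts in any library, with S100a8 and S100a9 at 0 in all libraries. The part of these markers in the drop of Nfkbia and Tnfaip3 was not tested. The other cytoplasmic inhibitor among the 10, Nfkbie (IκBε; ENSMUSG00000023947, chr17:45555703-45563169, + strand), did not share this drop. Its levels of 20.7, 21.2 and 20.8 CPM with vehicle and 22.6, 21.7 and 22.4 CPM with ALX-5407 did not overlap, and the treated values were the higher ones. The difference was small, a log2 fold change of 0.088 (SE 0.0898, 95% interval -0.10 to 0.28), and did not pass the test (edgeR adjusted p = 0.451).

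**Figure D1:**
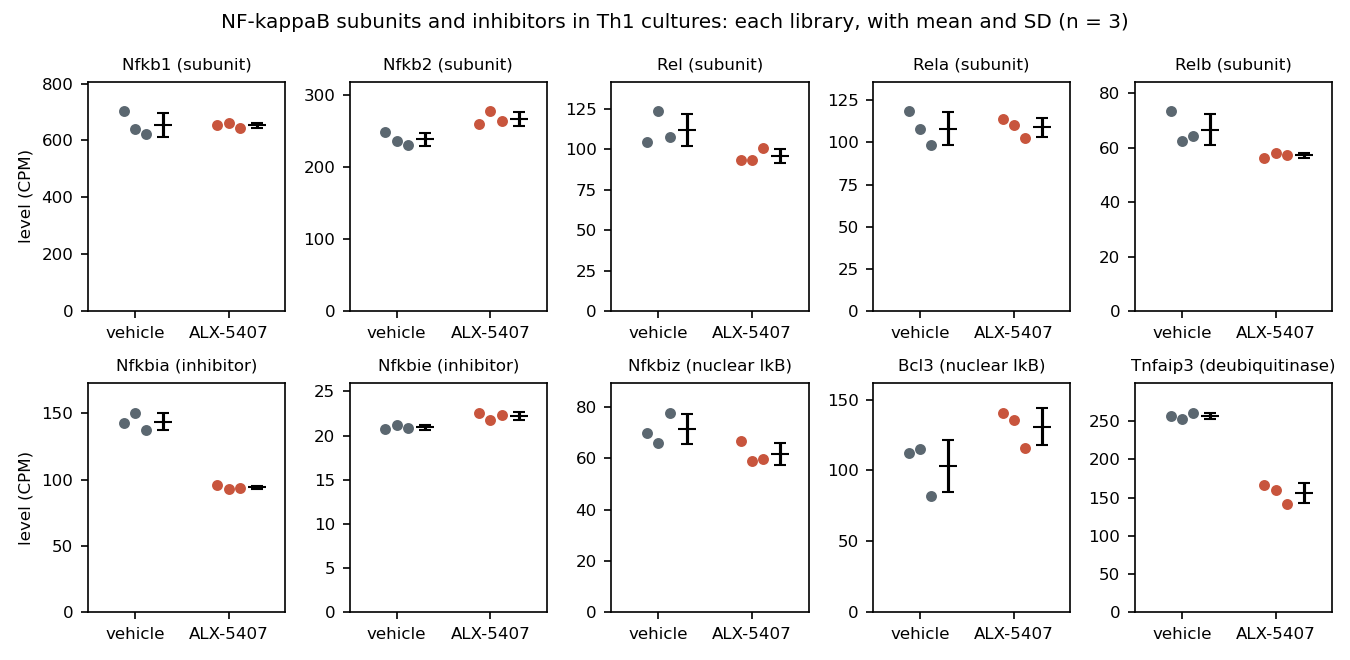
Level of each of the 10 genes in CPM (vertical axis, from 0) in the 3 vehicle cultures (grey) and the 3 ALX-5407 cultures (red), each point 1 library, with the mean and SD as a bar beside them. Tnfaip3 and Nfkbia show a wide gap between the groups, with treated means of 156 and 94.3 CPM against 257 and 144 CPM, while Nfkb1 and Rela overlap.

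Among the subunit genes, Nfkb1 (ENSMUSG00000028163, chr3:135584655-135691547, - strand) had the most reads. It measured 702, 639 and 622 CPM with vehicle and 653, 661 and 645 CPM with ALX-5407. All treated values lay within the range of the controls. The log2 fold change was -0.0028 (SE 0.0709, 95% interval -0.15 to 0.15, edgeR adjusted p = 0.979), and its sign turned under some alternatives. Rela (ENSMUSG00000024927, chr19:5637483-5648130, + strand) was as close to 0, with 118, 108 and 98.4 CPM in the controls and 114, 110 and 103 CPM in the treated cultures. Its log2 fold change was 0.010 (SE 0.0794, 95% interval -0.16 to 0.18, edgeR adjusted p = 0.931), again of a sign that turned under some alternatives. For both, the intervals leave room for a difference of up to 0.15 to 0.18 on the log2 scale.

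Rel (ENSMUSG00000020275, chr11:23736847-23770970, - strand) measured 105, 123 and 108 CPM with vehicle and 93.3, 93.1 and 101 CPM with ALX-5407. The groups did not overlap, though the highest treated and the lowest control culture were near each other. The mean was 112 ± 10.04 CPM with vehicle and 95.8 ± 4.56 CPM in treated cultures (SD, n = 3 per group), and Rel fell by 0.22 on the log2 scale (SE 0.0784, 95% interval -0.39 to -0.058, edgeR adjusted p = 0.0263). The call was lost without vehicle replicate 2 (log2 fold change -0.16, edgeR adjusted p = 0.124), without ALX-5407 replicate 1 (-0.20, edgeR adjusted p = 0.108) and without ALX-5407 replicate 2 (-0.20, edgeR adjusted p = 0.117), and over all 16 alternatives the adjusted p ran from 0.00739 to 0.124. Relb (ENSMUSG00000002983, chr7:19606217-19629438, - strand), the usual partner of p52, behaved alike in size. It measured 73.4, 62.5 and 64.2 CPM with vehicle and 56.2, 58.0 and 57.5 CPM with ALX-5407. Every treated culture lay below every control, and the first control stood above the other two.

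The mean of Relb was 66.7 ± 5.82 CPM with vehicle and 57.2 ± 0.895 CPM in treated cultures (SD, n = 3 per group), and Relb fell by 0.22 on the log2 scale (SE 0.0784, 95% interval -0.39 to -0.055, edgeR adjusted p = 0.0282). This call was lost without vehicle replicate 1 (log2 fold change -0.16, edgeR adjusted p = 0.139) and without ALX-5407 replicate 1 (-0.20, edgeR adjusted p = 0.103), 2 (-0.23, edgeR adjusted p = 0.0782) or 3 (-0.22, edgeR adjusted p = 0.0671), and over the 16 alternatives the adjusted p ran from 0.00768 to 0.139. Nfkb2 (ENSMUSG00000025225, chr19:46304737-46312090, + strand) went the other way, with 247, 236 and 231 CPM in the controls and 259, 277 and 263 CPM in the treated cultures. All treated values lay above all controls. The means were 238 ± 8.60 and 266 ± 9.24 CPM (SD, n = 3 per group). With a log2 fold change of 0.16 (SE 0.0687, 95% interval 0.016 to 0.31) it missed the threshold (edgeR adjusted p = 0.0632), and 1 of the 16 alternatives, scaling by library size alone, took it past (0.22, edgeR adjusted p = 0.0128, with a range of 0.0128 to 0.225 over the alternatives). The span the file gives for Nfkb2 is shorter than that in GENCODE M21 (46304320 to 46312385). Inside the file's span, AC114539.1 and Psd on the opposite strand share 3.05% of the annotated exon bases of Nfkb2 (18.1% over the whole M21 gene), and the sources used here do not say whether reads were counted by strand.

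Of the nuclear IκB genes, Bcl3 (ENSMUSG00000053175, chr7:19808462-19822770, - strand) measured 113, 115 and 81.8 CPM with vehicle and 141, 136 and 116 CPM with ALX-5407. The treated cultures lay above the controls, but the lowest of them was close to the highest control, and the third control was well under the other two. Its mean went from 103 ± 18.4 to 131 ± 13.04 CPM (SD, n = 3 per group), and Bcl3 rose by 0.34 on the log2 scale (SE 0.110, 95% interval 0.11 to 0.58, edgeR adjusted p = 0.0165). Without vehicle replicate 3 the log2 fold change was 0.19 and the call was lost (edgeR adjusted p = 0.0660). It was also lost without ALX-5407 replicate 1 (0.29, edgeR adjusted p = 0.0719) or 2 (0.32, edgeR adjusted p = 0.0559), and the adjusted p ran from 8.81e-05 to 0.0719 over the 16 alternatives. An antisense gene, Gm16175, shares 6.51% of the exon bases of Bcl3 and had at most 9 counts in any library.

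Nfkbiz (IκBζ; ENSMUSG00000035356, chr16:55811375-55838899, - strand) measured 70.1, 66.2 and 77.8 CPM with vehicle and 66.7, 58.9 and 59.9 CPM with ALX-5407. The first treated culture lay just inside the range of the controls, and the other two were below it. The means were 71.4 ± 5.87 and 61.8 ± 4.201 CPM (SD, n = 3 per group), and Nfkbiz fell by 0.21 on the log2 scale (SE 0.0816, 95% interval -0.38 to -0.034), just past the threshold (edgeR adjusted p = 0.0469). The call was lost under 8 of the 16 alternatives, among them DESeq2 (DESeq2 adjusted p = 0.0504) and the omission of vehicle replicate 1 (log2 fold change -0.23, edgeR adjusted p = 0.0712) or 3 (-0.16, edgeR adjusted p = 0.108) or of ALX-5407 replicate 2 (-0.17, edgeR adjusted p = 0.197) or 3 (-0.18, edgeR adjusted p = 0.145). The adjusted p ran from 0.0152 to 0.197 over them.

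Of the 10 genes, 7 had groups that did not overlap (3 higher and 4 lower with ALX-5407), beside 55.5% of all genes tested. The IκB family has further genes outside the 10, with larger log2 fold changes in these data. Nfkbid (IκBNS, a nuclear IκB) measured 10.4, 11.4 and 13.5 CPM with vehicle and 31.5, 33.4 and 27.7 CPM with ALX-5407. Every treated culture had more than any control by a wide margin, and Nfkbid rose by a log2 fold change of 1.39 (SE 0.114, edgeR adjusted p = 8.31e-08). Nfkbib (IκBβ, a cytoplasmic inhibitor) measured 90.1, 96.6 and 73.5 CPM with vehicle and 55.5, 45.6 and 42.2 CPM with ALX-5407. It fell by 0.86 on the log2 scale (SE 0.108, edgeR adjusted p = 7.28e-06), again without overlap. Over these 6 IκB genes, the cytoplasmic Nfkbia and Nfkbib and the nuclear Nfkbiz fell, the nuclear Bcl3 and Nfkbid rose, and Nfkbie did not pass the test.

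**Figure D2:**
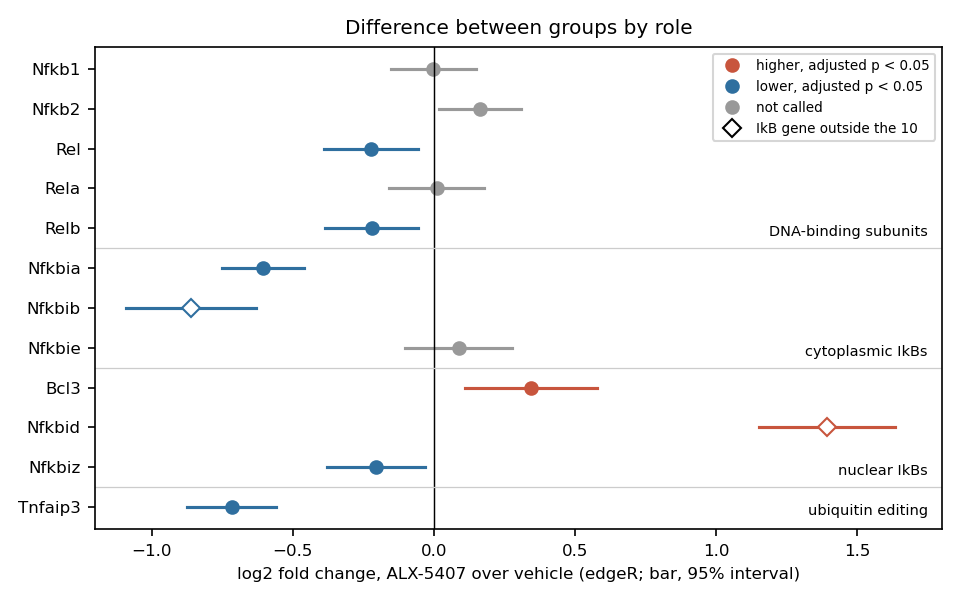
Log2 fold change of ALX-5407 over vehicle (horizontal axis, edgeR) for the 10 genes (circles) and for Nfkbib and Nfkbid (diamonds), with 95% intervals as bars, ordered by role and coloured by call. Nfkbia and Tnfaip3 are lowest of the 10 at -0.61 and -0.72, the 5 subunit genes lie between -0.22 and 0.16, and the nuclear IκB genes lie on both sides of 0.

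Levels can be set between genes only per length of transcript. Dividing CPM by the gene length in the file, the vehicle order was Nfkbia (89.2 ± 3.99 CPM per kb), Nfkb2 (72.4 ± 2.61), Nfkb1 (54.3 ± 3.49), Bcl3 (41.7 ± 7.45), Rela (39.8 ± 3.68), Tnfaip3 (35.5 ± 0.567), Relb (17.2 ± 1.499), Rel (14.99 ± 1.35), Nfkbiz (14.2 ± 1.17) and Nfkbie (6.87 ± 0.0832; SD, n = 3 each). The neighbours Bcl3 and Rela, Relb and Rel, and Rel and Nfkbiz had ranges that overlapped, and the other neighbours did not. With ALX-5407, Nfkb2 led with 80.9 ± 2.81 CPM per kb and Nfkbia was next with 58.6 ± 0.838, followed by Nfkb1 (54.2 ± 0.682) and Bcl3 (52.9 ± 5.27), whose ranges overlapped. Below them came Rela (40.1 ± 2.05), Tnfaip3 (21.6 ± 1.78), Relb (14.7 ± 0.230), Rel (12.8 ± 0.610) and Nfkbiz (12.3 ± 0.837), with overlap between Rel and Nfkbiz, and Nfkbie (7.30 ± 0.143). Nfkbia thus stood above Nfkb2 with vehicle and below it with ALX-5407, with no overlap in either group. For 8 of the 10 genes the file's length equals the merged exons of all GENCODE M21 transcripts, which makes Nfkb1 12061 bases long, while its principal transcript has 4117. For Nfkb2 (3289 against 4584 merged bases) and Rela (2716 against 3072) the file's length is shorter, so it does not treat all members alike. With principal transcript lengths, chosen after the lengths were seen, Nfkb1 stood first in both groups, with 159 CPM per kb in each.

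The 5 subunit genes were also compared as shares of their summed CPM per kb within each library. Nfkb2 made up 35.8%, 36.4% and 37.1% with vehicle and 39.1%, 40.6% and 40.0% with ALX-5407, a mean gain of 3.46 points. Relb made up 8.995%, 8.17% and 8.75% with vehicle and 7.17%, 7.21% and 7.41% with ALX-5407, which is 1.37 points less in the mean. The share of Nfkb1 went from 27.3% ± 0.418 to 26.7% ± 0.184 (SD, n = 3 per group). For these 3 subunits the groups did not overlap, and the exact permutation test (two-sided) gave p = 0.1, the smallest that 3 against 3 allow, or 0.167 when adjusted over the 5 shares. Rel went from 7.57% ± 0.854 to 6.33% ± 0.398 (SD, n = 3 each, exact permutation p = 0.2) and Rela from 20.03% ± 0.799 to 19.8% ± 0.9001 (exact permutation p = 0.7), both with overlap. The separation of the Nfkb1 share depended on the lengths: its difference was -0.60 points with the file's lengths, -0.47 with principal transcript lengths (exact permutation p = 0.3) and -0.19 without division by length (exact permutation p = 0.8). Nfkb2 kept a gain of 2.58 and 2.34 points and Relb a loss, at -1.40 and -0.81 points, under the same pair of changes (exact permutation p = 0.1 for each), and Rel differed by -0.72 and -1.40 points (exact permutation p = 0.2 for each). With principal transcript lengths Nfkb1 held 49.7% of the sum with vehicle and 49.2% with ALX-5407.

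The sum of Nfkbia and Nfkbie over the sum of the 5 subunits, again per kb, was 0.455, 0.509 and 0.489 with vehicle and 0.331, 0.314 and 0.330 with ALX-5407. All treated cultures lay below all controls, with means of 0.484 ± 0.0276 and 0.325 ± 0.00972 (SD, n = 3 per group). The exact permutation test (two-sided) gave p = 0.1, the smallest possible here, so this design cannot reach 0.05 with such a test. The difference of -0.159 became -0.0982 with principal transcript lengths and -0.0411 without division by length, and the groups stayed apart in rank (exact permutation p = 0.1 in both). Nfkbia made up most of the upper sum (89.2 CPM per kb with vehicle, against 6.87 for Nfkbie). The ratio therefore largely repeats the drop of Nfkbia, and Nfkbib was not part of it. These are ratios of RNA, and protein was not measured in these files.

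**Figure D3:**
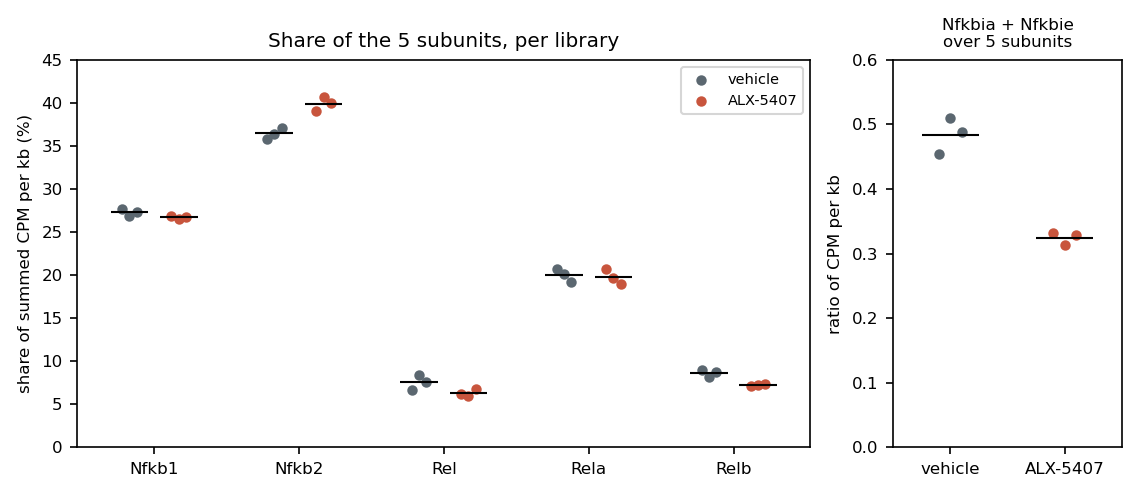
Left, share of each subunit gene in the summed CPM per kb of the 5 (%, vertical axis from 0); right, ratio of Nfkbia plus Nfkbie to the 5 subunits in CPM per kb; points are libraries, lines are means of 3, grey is vehicle and red ALX-5407. Nfkb2 gains 3.46 points, and the ratio is 0.484 with vehicle and 0.325 with ALX-5407.

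Of 40 receptors and ligands that feed the pathway, 37 could be tested. 16 of these (43.2%) fell and 8 (21.6%) rose, beside 23.2% and 24.5% of all genes tested. The middle log2 fold change (median) over its tested genes was -0.17. Among those that fell were Tnfsf4 (OX40 ligand), from 36.9 ± 1.28 to 5.65 ± 1.35 CPM (log2 fold change -2.71, SE 0.137, edgeR adjusted p = 5.01e-10), and Tnfrsf25 (the receptor of TL1A), from 63.2 ± 2.12 to 26.7 ± 4.04 CPM (-1.24, SE 0.0991). The IL-33 receptor gene Il1rl1 (-1.07, SE 0.107) and the IL-18 receptor gene Il18r1 (-0.76, SE 0.0805) fell too. Cd28, the main costimulatory receptor of naive T cells, rose from 535 ± 17.97 to 766 ± 54.9 CPM (0.52, SE 0.0734, edgeR adjusted p = 2.44e-05). Tlr1 (0.74, SE 0.0968), Tnf (0.61, SE 0.0963) and Tnfrsf13b (0.46, SE 0.0860) rose as well.

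The 33 relay genes, kinases and adaptors between receptor and IκB, were all tested: 10 (30.3%) rose and 8 (24.2%) fell, shares near the 24.5% and 23.2% of all genes tested. The middle log2 fold change (median) over its tested genes was 0.080. With upper quartile scaling 6 of them rose, beside 3413 of the 15938 genes tested. Birc2, which encodes the ubiquitin ligase cIAP1, fell from 201 ± 18.5 to 87.9 ± 3.56 CPM (log2 fold change -1.19, SE 0.0787, edgeR adjusted p = 8.06e-09). The IκB kinase relative Ikbke (-0.67, SE 0.0784), the IL-1 receptor-associated kinase gene Irak2 (-0.45, SE 0.0759) and the adaptor gene Traf1 (-0.36, SE 0.0696) also fell. The death domain adaptors Fadd (0.89, SE 0.174) and Tradd (0.52, SE 0.104), the kinase TAK1 gene Map3k7 (0.29, SE 0.0720) and Traf5 (0.55, SE 0.147) rose. Fadd and Traf5 were low, at 4.51 and 6.18 CPM with vehicle.

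A list of 26 further genes, called brake genes here for short, holds other IκB genes, ubiquitin editors and regulators of mRNA decay. Not all of them hold the pathway back: Sharpin and Btrc, for example, promote its signalling. Of the list, 10 (38.5%) rose and 8 (30.8%) fell, where 24.5% and 23.2% of all genes tested did. The middle log2 fold change (median) over its tested genes was 0.095. The genes for the A20-binding proteins ABIN-1, ABIN-2 and ABIN-3 fell with Tnfaip3: Tnip2 from 125 ± 11.0 to 53.2 ± 1.77 CPM (log2 fold change -1.23, SE 0.0793, edgeR adjusted p = 6.95e-09), Tnip3 (-0.86, SE 0.0961) and Tnip1 (-0.33, SE 0.0835). The decay regulators Rc3h1 (Roquin-1; 0.63, SE 0.0774) and Zfp36l1 (0.75, SE 0.0948) rose, as did N4bp1 (0.69, SE 0.0808), whose product restrains NF-κB signalling. The list thus held genes that rose and genes that fell, as did the 10 members.

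Of 56 textbook targets of NF-κB outside the 10, 51 could be tested. 20 of these (39.2%) rose and 10 (19.6%) fell, against 24.5% and 23.2% over all genes tested, and the median log2 fold change was 0.11. The split varied with scaling. With library size alone 22 targets rose and 9 fell, beside 4484 and 3246 of the 15938 genes tested. With upper quartile scaling 18 rose and 14 fell, beside 3413 and 4158. Some are also counted as receptors, relay genes or brakes. Cd83, an activation marker, fell from 44.6 ± 4.65 to 7.06 ± 0.497 CPM (log2 fold change -2.66, SE 0.107, edgeR adjusted p = 4.64e-11). Cd80 (-1.66, SE 0.121), the death ligand gene Fasl (-1.56, SE 0.134) and Tnfrsf9 (4-1BB; -0.69, SE 0.0743) also fell. Myc rose from 174 ± 5.31 to 259 ± 24.4 CPM (0.57, SE 0.0773, edgeR adjusted p = 1.62e-05), and Irf4, a factor induced by T cell receptor signals, rose from 729 ± 21.6 to 1017 ± 89.3 CPM (0.48, SE 0.0760, edgeR adjusted p = 7.43e-05). Of the 45 listed targets with a promoter window, 15 (33.3%) held the κB consensus, beside 5.14% of all genes with a window. Such genes were found among those that fell (Tnfrsf9, Tnip1) and those that rose (Nfkbid). The calls of the other targets with a match are not given here.

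**Figure D4:**
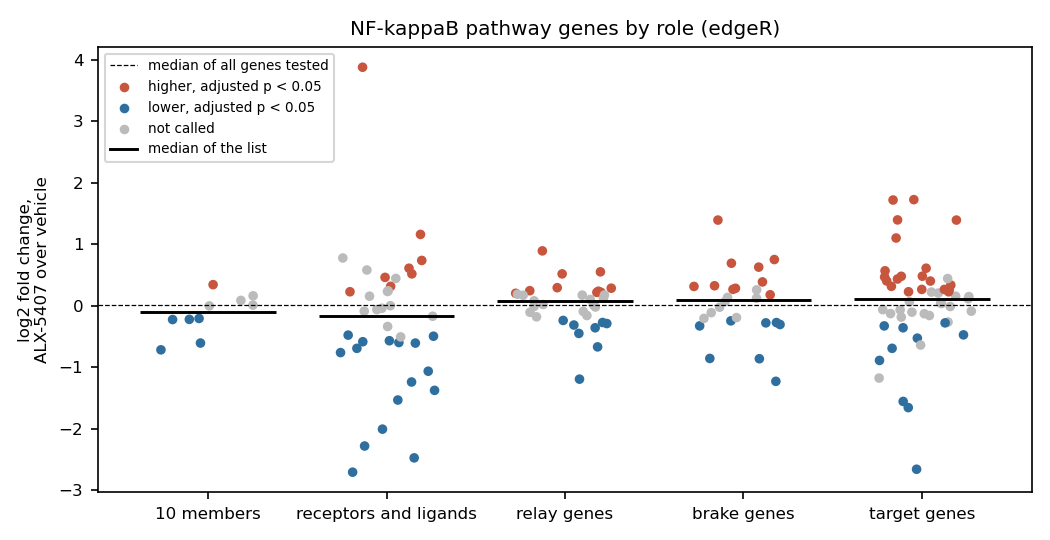
Log2 fold change of ALX-5407 over vehicle (vertical axis, edgeR) for each tested gene of the 10 members and the 4 pathway lists, coloured by call, with the list's median as a line and the median of all genes tested dashed. The receptors and ligands have the lowest median of the 5 (-0.17) and the target genes the highest (0.11). The point above the rest, Tlr4, had a mean of 24.7 counts per library.

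By Pearson correlation of log2 CPM over the 6 libraries, the genes most like Tnfaip3, the member with the smallest p, were Dusp4 (r = 0.9996), a phosphatase of MAP kinases, Sec61g (r = 0.998), part of the protein channel of the endoplasmic reticulum, and Sdhd (r = 0.998), part of respiratory complex II. The 6 libraries fall into 2 groups that differ in these genes, so r mostly reflects that difference.

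**Figure D5:**
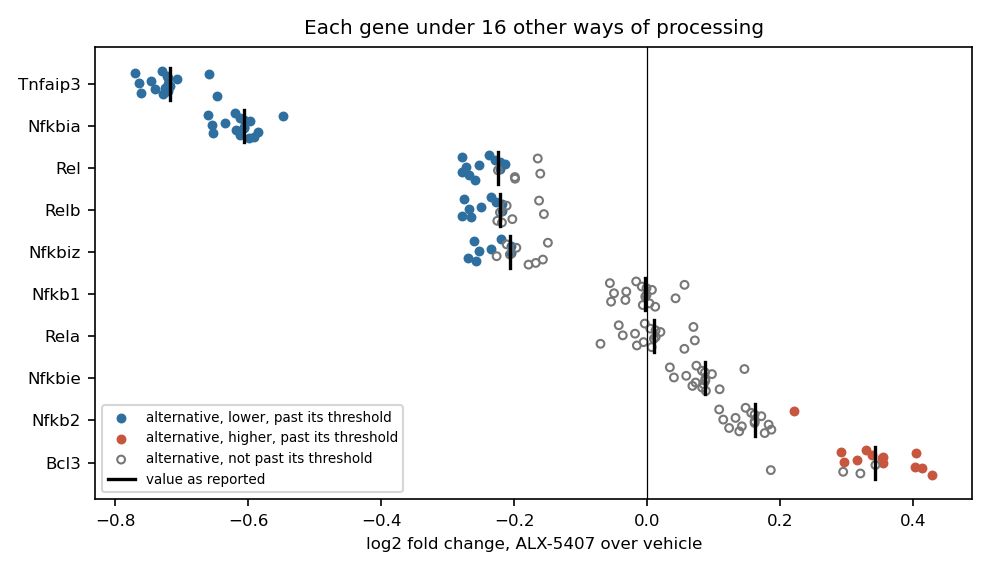
Log2 fold change of ALX-5407 over vehicle (horizontal axis) of each of the 10 genes under the 16 alternatives, filled where past that alternative's threshold and open where not; the black line is the value as reported. Tnfaip3 (-0.77 to -0.65) and Nfkbia (-0.66 to -0.55) are filled throughout, and Nfkb1 and Rela straddle 0.

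Libraries held 30801753 to 36727788 counted reads, and the 10 genes had 641 to 24675 reads each per library. The share of mitochondrial reads was 2.67% to 3.12% with vehicle and 1.94% to 2.05% with ALX-5407, and its part in the results was not tested. As a check of the labelled cell type, the summed level of 10 CD4 T cell genes was 3331 to 3449 CPM with vehicle and 3274 to 3312 CPM with ALX-5407, with none at 0, 5 lower (Cd4 among them) and 2 higher. The sum of 6 Th1 markers was 1357 to 1566 CPM with vehicle and 1075 to 1114 CPM with ALX-5407, with Ifng, Stat4 and Il18r1 lower and Tbx21 higher. Markers of B cells (8 genes) summed to 79.2 to 88.4 CPM with vehicle and 82.3 to 86.6 CPM with ALX-5407, a sum made up mostly of Ighm, and within it 4 genes (Ms4a1, Pax5, Cd22 and Cd79a) were higher and Ebf1 was lower. The sum of 2 CD8 T cell genes was 9.25 to 9.59 and 6.71 to 8.87 CPM, with Cd8a lower. That of 6 NK cell genes was 5.72 to 7.21 and 6.503 to 6.85 CPM, and of the 2 that could be tested Eomes was higher (log2 fold change 1.05) and Klre1 lower (-1.46). The platelet genes Pf4 (mean 0.490 CPM with vehicle and 1.58 CPM with ALX-5407, log2 fold change 1.69) and Itga2b (3.61 and 6.95 CPM, log2 fold change 0.95) were higher. The part of these markers in the differences between groups was not tested. In such bulk samples fewer cells of a type and less RNA per cell cannot be told apart.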

How the data were processed

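Polyadenylated RNA was captured on oligo-dT beads per the labels, while the study's methods name ribosomal RNA depletion. The submitters' processing notes list fastp, HISAT2 2.0.5, featureCounts 1.5.0-p3 and mm10. The authors deposited raw counts, whole numbers of reads per gene in each library, with no normalization and no pooling; the strand setting and the handling of reads that map to several places are not given in the sources used here. Groups and replicate numbers came from the labels, dose and vehicle from the methods.

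Counts were tested with edgeR 4.0.16 under R 4.3.3 (filterByExpr with a minimum count of 10, TMM scaling, quasi-likelihood F test, Benjamini-Hochberg adjustment over 15938 genes, threshold 0.05), with no covariate. Scaled counts are given as CPM. Per kb values used the length in the file. Shares and the inhibitor ratio were compared by two-sided exact permutation tests over the 6 libraries with SciPy 1.17.1. Only the edgeR test was tried on simulated counts, with the same spread for all genes, and the share and ratio tests were not. Alternatives were other scalings (DESeq2 size factors, upper quartile, library size alone), DESeq2 1.42.0, limma-voom (limma 3.58.1), other filters, a stricter threshold of 0.01, a replicate block, and each replicate left out in turn. The named genes were all 10 members, Nfkbib and Nfkbid, and in each other list up to 4 genes per direction with the smallest p among those called with a mean of at least 50 counts. As genes of like pattern, the 3 with the highest r were taken. The cell type markers and the genes that overlap a member come from lists or annotation outside this rule. 1 marker gene, and the sum of its list, is not reported here. The members and lists were chosen with earlier results of these data known. Exons came from GENCODE M21 and promoters from RefSeq, both on GRCm38. Counts of replicates differed beyond sampling noise (chi-square per degree of freedom 5.58 to 22.3), so each library was used as 1 replicate. Figures were drawn with matplotlib 3.10.9.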

Additional observations from a re-analysis of the deposited data

How the results depend on the processing

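The calls for Tnfaip3 and Nfkbia were kept under all 16 alternatives. The other calls rest on small differences between 3 libraries a group: with library size alone the calls for Rel, Relb and Nfkbiz were lost (edgeR adjusted p = 0.0920, 0.105 and 0.165), and without a filter those for Relb and Nfkbiz (0.0511 and 0.0716). The number of members higher was 2 with library size alone and 0 at an adjusted p under 0.01. The number lower was 2 with library size alone, 3 without a filter and 2 at 0.01. Of the 15938 genes tested, 4484 were higher and 3246 lower with library size alone, and 2924 and 2687 at 0.01. Without a filter, 3997 of 28464 genes were higher and 3727 lower. Leaving out 1 library gave 0 to 1 members higher and 2 to 4 lower. Beside these, 3330 to 3852 of 16504 to 16558 genes tested were higher and 3220 to 3851 lower. Relay genes higher were 6 both with the upper quartile and at 0.01, where 3413 and 2924 of the 15938 genes tested were higher. Nfkb1 changed sign to 0.056 with library size alone and 0.0072 without a filter, and ran from -0.054 to 0.043 with 1 library left out. Rela changed sign to -0.0036 with DESeq2 size factors, -0.043 with the upper quartile, -0.018 over genes averaging 50 counts or above, and -0.037 over protein-coding genes alone, and ran from -0.070 to 0.072 with 1 library left out. The share of Rela changed sign to 0.061 points without division by length and 0.0060 points with principal transcript lengths, an alternative added after the lengths were seen, and ran from -0.73 to 0.16 points with 1 library left out. None of these values for Nfkb1 and Rela passed a test, and the cause was not tested. Deviations from the group means of vehicle and treated libraries of the same number correlated with r of -0.0084, 0.0036 and 0.063. Replicates 1 and 2 of the vehicle group each correlated best with another number, so the numbers were not taken as pairs. With a replicate block 1 member was higher and 5 lower, the brake gene list had 10 lower, and no count moved by over 1.5 times. Under that block 4071 of the 15938 genes tested were higher and 3833 lower. Among these scalings, library size alone moved the median log2 fold change of all genes most, to 0.064.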
